A study of Mus musculus with 24 samples.

Results

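The 9 recombinant inbred (RI) strains of the BXH mouse set were compared with the mice they descend from: the progenitors B6 and C3 and the hybrid BXHF1 (F1). The RI arrays were chosen by their titles, which begin with BXH and a strain number, and made up 18 of the 24 arrays and 9 of the 12 kinds of mice in the series. The other 6 arrays, 2 each of B6, C3 and F1, formed the other side. The comparison asked which genes placed all RI strains on one side of B6, C3 and F1.

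The RI strains were BXH2, BXH4, BXH6, BXH7, BXH8, BXH9, BXH10, BXH14 and BXH19, each an inbred line that carries its own fixed mixture of B6 and C3 chromosomes. B6 is C57BL/6J, C3 is C3H/HeJ, and F1 is the first-generation hybrid of the 2 strains, with a copy of each parental genome. All mice were males of 8 weeks from one supplier, none was treated, and total RNA came from lung. The labels name no engineered allele in any group. RNA was hybridised to Affymetrix Mouse 430A arrays, with 2 arrays per strain. The series text says that 2 sets of lungs were taken from each strain, and each array is labelled n = 1, with no word on shared litters, cages or processing. The labels give no date or hour of collection, so class of mouse and any batch or collection time cannot be told apart.

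An RI strain inherits each locus from one progenitor or the other. A gene set by 1 inherited locus therefore tends to split an RI set into B6-like and C3-like strains. The genes sought here put every RI strain on one side of both progenitors and the hybrid, and the cause was not tested. The circadian clock enters below, and it works in lung as in most tissues: CLOCK and ARNTL (BMAL1) switch on genes through E-boxes, the PER and CRY proteins block them, and NR1D1 and NR1D2 (REV-ERB alpha and beta) repress Arntl through ROR elements. DBP, TEF and HLF are output factors that act through D-boxes, and Arntl and Dbp transcripts peak at roughly opposite times of day in mouse tissues.

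Of 8280 genes tested with limma on the 12 strain means, 6 had a Benjamini-Hochberg adjusted p below 0.05, which is 0.0725% of the genes. In the RI strains 5 genes (0.0604%) were higher, namely Igha, Dbp, Nr1d2, Tef and Cipc, and 1 gene (0.0121%), Spon2, was lower. Igha is the heavy chain of immunoglobulin A, and Spon2 is a secreted extracellular matrix protein. The other 4 belong to the clock or its output. At an unadjusted p below 0.05 there were 688 genes (8.31%), of which 372 (4.49%) had a positive and 316 (3.82%) a negative difference. Over all 8280 genes the median difference was 0.0051 on the log2 scale. Control probe sets for 18S ribosomal RNA also separated the classes over strain means, by 3.27 on the log2 scale, and their part in these differences was not tested. Skeletal muscle genes varied between arrays, and with their mean as a covariate all 6 genes were called again among 11.

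The count of genes with no overlap of strain means gave a wider view without a test. All 9 RI strain means lay above those of B6, C3 and F1 for 104 genes (1.26%) and below them for 68 genes (0.821%), 172 (2.08%) in all. Over single arrays, all 18 RI arrays lay above the 6 others for 5 genes (0.0604%), and all 18 lay below them for 4 genes (0.0483%). The 5 were Igha, Dbp, Nr1d2, Tef and the lymphocyte membrane gene Ms4a4b. The 4 were Spon2, Serpinh1, Glipr2 and Col5a2. Ms4a4b and Col5a2 were named after their values were seen.

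Among the output factors, Dbp showed the largest difference of the clock genes. Its signal in the 18 RI arrays was lowest at 504, had a median of 1390 and was highest at 2327, against 196 and 142 for B6, 402 and 353 for C3 and 158 and 189 for F1. No RI array overlapped any of the 6 others, and C3 was the highest of the 3. Over strain means Dbp averaged 1414 ± 515 in RI strains and 240 ± 119 in the progenitors and F1 (SD, n = 9 and 3 strains). The difference was 2.47 in log2(signal + 16), with a standard error of 0.34 and a limma adjusted p of 0.0208. A second Dbp probe set gave 3.44 on the same scale.

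Tef signals ran from 2483 through a median of 4194 to 6019 in the RI arrays, against 1555 and 1499 for B6, 2230 and 2138 for C3 and 1811 and 1701 for F1. Its arrays did not overlap either. The log2 difference was 1.16 (SE 0.17, limma adjusted p 0.0220), and the RI strain means also lay above in both other Tef probe sets, by 0.72 and 0.98. Hlf, the remaining output factor tested, ran from 329 through 582 to 975 in RI arrays, against 335 and 255 for B6, 293 and 340 for C3 and 225 and 247 for F1. Single Hlf arrays overlapped while strain means did not, and its log2 difference of 1.02 had an adjusted p of 0.230. A second Hlf probe set gave 1.35, with RI strain means above as well. Nfil3, a repressor that competes for D-boxes, lay under the level filter; without that filter its log2 difference was -0.99 with an adjusted p of 0.405.

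**Figure D1:**
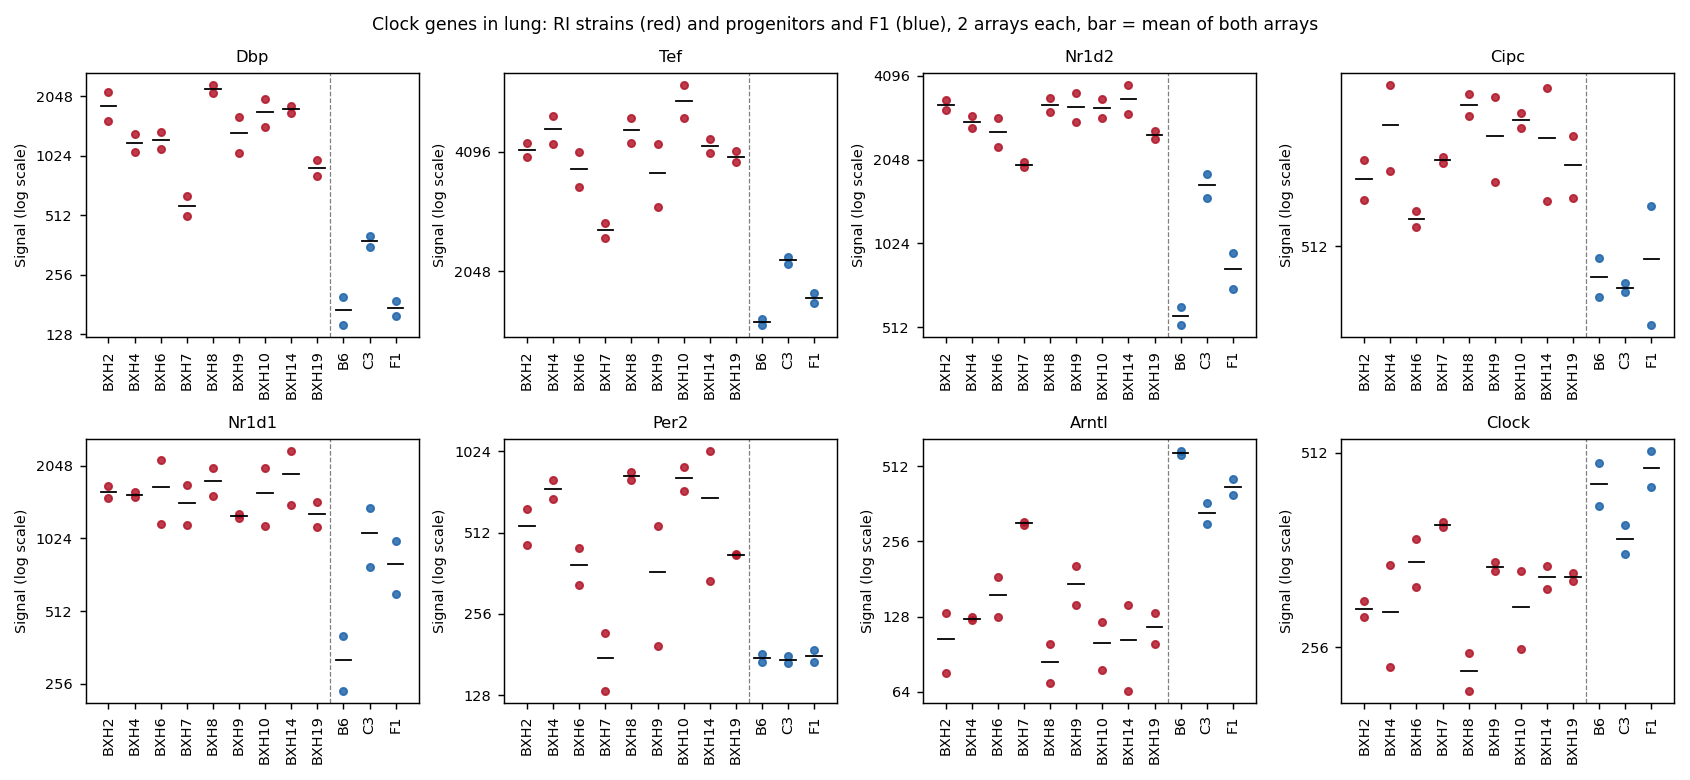
Signal on a log scale (vertical axis) for 8 clock genes in each strain (horizontal axis), with 2 array points and a bar for their mean; RI strains are red and left of the dashed line, B6, C3 and F1 blue. For Dbp, Tef and Nr1d2 no RI array overlaps the blue points; Cipc, Nr1d1, Per2, Arntl and Clock overlap over single arrays, and BXH7 lies nearest to the blue points among RI strains for Dbp, Tef, Nr1d2, Per2, Arntl and Clock.

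In the negative limb, 1 of 7 tested members was higher in the RI strains and none was lower, against 0.0604% and 0.0121% of all genes. RI strain means all lay above for 2 of the 7, against 1.26% of all genes. All 7 differences were positive, against 4280 of all 8280 genes, and the median log2 difference was 1.12. The member that passed was Nr1d2. Its signal ran from 1923 through 2923 to 3791 in RI arrays, against 520 and 605 for B6, 1820 and 1492 for C3 and 705 and 946 for F1. The arrays did not overlap, although C3 came within 0.25 log2 units of BXH7 over strain means. The difference was 1.62 (SE 0.24, limma adjusted p 0.0220), and the second Nr1d2 probe set gave 1.52.

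Nr1d1, its paralog, ran from 1139 through 1506 to 2363 in RI arrays, against 240 and 404 for B6, 1369 and 779 for C3 and 604 and 999 for F1. Strain means did not overlap but one C3 array lay among the RI arrays, and the difference of 1.25 had an adjusted p of 0.126. Per2 ran from 133 through 499.9 to 1030 in RI arrays, against 182 and 170 for B6, 168 and 179 for C3 and 170 and 188 for F1. Per2 differed by 1.39 on the log2 scale (adjusted p 0.332), and its BXH7 mean of 175 lay among those of the progenitors and F1. The remaining members were Per3 at 1.12 (adjusted p 0.312), Bhlhe40, a repressor of the same E-boxes, at 0.81 (0.210), Per1 at 0.73 (0.630) and Cry2 at 0.27 (0.802). Under the level filter, Cry1 and Bhlhe41 had log2 differences of -0.14 and 0.17.

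Cipc encodes a protein that binds CLOCK and inhibits it. Its signal ran from 549 through 709 to 932 in RI arrays, against 490 and 423 for B6, 446 and 432 for C3 and 594 and 381 for F1. One F1 array lay among the lowest RI arrays, while strain means did not overlap. The log2 difference was 0.66 (SE 0.11, limma adjusted p 0.0355). Both other Cipc probe sets overlapped between strain means, with differences of 0.24 and 0.39, and with the mean of the 3 probe sets the adjusted p was 0.302.

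None of the 3 positive limb genes passed the test. Arntl ran from 64.7 through 128 to 306 in RI arrays, against 568 and 592 for B6, 300.0 and 366 for C3 and 392 and 456 for F1. The highest BXH7 array overlapped the lower C3 array, and all RI strain means lay below, with BXH7 and C3 0.13 log2 units apart. Its log2 difference was -1.64 (SE 0.29, limma adjusted p 0.0732). Apart from BXH7 and BXH9 (8.31 and 7.55), the RI strain means of Arntl lay under the filter's log2 level of 7.53. Arntl passed the filter through B6, C3 and F1 (9.22, 8.44 and 8.78), which favours a negative sign. Clock differed by -0.46 (adjusted p 0.373) and Rora, which activates Arntl, by 0.44 (adjusted p 0.578). Npas2, a CLOCK paralog under the level filter, averaged 27.5 ± 16.9 in RI strains and 101 ± 45.8 in the progenitors and F1, and its RI strain means all lay below on the log2 scale, while on the signal scale BXH7 at 62.4 and C3 at 61.9 met (log2 difference -1.50, adjusted p 0.221 without the filter).

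Further genes known to cycle with the clock were described from a list of 6, of which none passed. Its median log2 difference was 0.38. Tspan4, a membrane protein, had the largest at 1.32 (adjusted p 0.210), with RI arrays at 390 to 1672, against 300 and 366 for B6, 704 and 334 for C3 and 314 and 342 for F1. The cold-inducible list had none of 5 called and a median of 0.14. Its members Cirbp, Srsf3 and Srsf5 bind RNA, Clk1 and Clk4 are kinases that act on splicing factors, and they respond to body temperature. Clk4 alone had all RI strain means above, by 0.008 log2 units. The glucocorticoid list had none of 17 called (median 0.0041) and the immediate early list none of 16 (median 0.087). The glucocorticoid median was 0.28 without F1 and -0.02 without BXH4, and the immediate early one 0.04 without F1 replicate 1.

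Promoters of 4 clock genes are shown because each holds letters of a motif that a clock factor named above is known to bind. They are RefSeq promoter windows on GRCm38.p6, written 5′ to 3′ on the gene's strand. Motifs are in capitals: an E-box (CACGTG) in Tef and Cipc, D-boxes (TTATGTAA) in Per3 and the core of a ROR element (TAGGTCA) in Arntl. Tef lies at chr15:81802423-81802722 on the plus strand, with its E-box 127 bases before the start. Cipc lies at chr12:86947093-86947392 on the plus strand, with its E-box 17 bases before the start, and a second Cipc entry held none of the motifs. Per3 lies at chr4:151044616-151044915 on the minus strand, with D-boxes 205 and 158 bases before the start. The second Arntl entry lies at chr7:113207261-113207560 on the plus strand, with the ROR core 31 bases after the start.
Tef: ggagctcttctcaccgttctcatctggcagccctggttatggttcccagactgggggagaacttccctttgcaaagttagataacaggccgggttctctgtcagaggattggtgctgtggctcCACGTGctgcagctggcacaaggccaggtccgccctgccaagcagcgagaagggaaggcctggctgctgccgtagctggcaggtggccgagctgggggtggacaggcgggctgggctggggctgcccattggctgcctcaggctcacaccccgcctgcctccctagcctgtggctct
Cipc: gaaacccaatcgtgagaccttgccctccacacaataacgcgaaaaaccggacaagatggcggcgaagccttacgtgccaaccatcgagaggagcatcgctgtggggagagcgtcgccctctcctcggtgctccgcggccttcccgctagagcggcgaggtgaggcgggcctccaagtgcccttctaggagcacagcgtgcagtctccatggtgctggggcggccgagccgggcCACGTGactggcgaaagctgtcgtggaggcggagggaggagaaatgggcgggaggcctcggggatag
Per3: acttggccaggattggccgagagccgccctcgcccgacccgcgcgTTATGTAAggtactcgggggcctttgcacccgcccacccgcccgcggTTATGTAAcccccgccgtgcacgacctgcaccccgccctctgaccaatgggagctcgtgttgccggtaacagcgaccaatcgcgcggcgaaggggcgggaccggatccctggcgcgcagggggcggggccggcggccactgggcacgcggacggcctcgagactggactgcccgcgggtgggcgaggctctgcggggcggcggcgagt
Arntl: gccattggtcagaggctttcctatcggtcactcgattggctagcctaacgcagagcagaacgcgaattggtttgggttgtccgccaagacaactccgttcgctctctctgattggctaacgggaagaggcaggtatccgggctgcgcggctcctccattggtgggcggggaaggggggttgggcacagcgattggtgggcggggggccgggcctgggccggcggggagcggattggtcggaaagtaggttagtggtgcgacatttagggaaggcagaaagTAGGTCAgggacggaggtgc

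Both strands were searched, where the D-box reads TTACATAA, the ROR core TGACCTA and the E-box the same, in all 32851 promoter windows of the same length. The E-box was in 7.15% of them, the D-box in 0.938% and the ROR core in 2.61%. Of 16 genes looked up, 12 had an entry, and in their 18 entries no matches overlapped. A second Tef entry held an E-box 138 bases before its start, and 1 of 2 Per1 entries held one 166 bases before. None of the 3 motifs was in the windows of Dbp, Nr1d2, Nr1d1 or Hlf, which says only that these letters are not in those windows.

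Among the RI strains themselves, Dbp was set against 16 other genes, and the relation with Nr1d2 was the only one to pass after adjustment. Over the 9 RI strain means Dbp correlated with Nr1d2 at Pearson's r = 0.94 (exact permutation p 0.000405, adjusted p 0.00891 over 22 relations) and Spearman's rho = 0.90 (exact permutation p 0.00203, adjusted p 0.0446). Without BXH7 and BXH8, the strains farthest from the Dbp median, r was 0.88. Dbp and Arntl gave r = -0.86 (exact permutation p 0.00511, adjusted p 0.0503) and rho = -0.78 (exact permutation p 0.0172, adjusted p 0.189). That relation missed the adjusted threshold, and without those strains r was -0.50. Leaving them out also narrows the range of Dbp, which can lower r, so this cannot show whether the relation rests on them. Dbp with Tef gave r = 0.77 and with Hlf 0.76 (exact permutation adjusted p 0.0518 each), with rho of 0.48 and 0.62 (exact permutation adjusted p 0.425 and 0.210), and r without those strains was 0.37 and 0.36. With Cipc, Per3, Cry2 and Rora r was 0.35, 0.54, 0.49 and 0.48, with exact permutation adjusted p from 0.235 to 0.454. BXH7 had the lowest RI strain mean of Dbp (571), Nr1d2 (1965), Tef (2600), Hlf (330), Per1 (416), Per2 (175) and Per3 (351), and the highest of Arntl (302) and Clock (396). Over the 104 genes with RI strain means above, BXH6 was the RI strain nearest to the other class for 23, BXH4 and BXH7 for 14 each and BXH9 for 13, and over the 68 genes below, BXH6 and BXH7 were nearest for 14 each and BXH8 and BXH19 for 11 each.

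Igha had the smallest p of all genes tested. Its signal ran from 854 through 1863 to 4312 in the RI arrays, against 211 and 216 for B6, 303 and 322 for C3 and 321 and 216 for F1. Every RI array exceeded every other array, and over strain means the nearest pair, BXH4 and C3, were 1.59 log2 units apart. Igha averaged 2009 ± 729 in RI strains and 265 ± 49.5 in the progenitors and F1 (SD, n = 9 and 3 strains). The log2 difference was 2.75 (SE 0.29, limma adjusted p 0.00171).

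The 3 Igha probe sets differed by 4.32, 3.57 and 2.75 on the log2 scale, and RI strain means lay above in each. The probe set used is of a type that can bind related transcripts. On the arrays 42 probe sets measured 20 immunoglobulin genes. Of these probe sets 4 had all RI strain means above, 3 of them of Igha, and 0 below. Over all genes tested the shares were 1.26% above and 0.821% below. Without Igha there were 39 probe sets, with 1 above, differences of -0.29 to 1.83 and a median of 0.18. That 1 was a probe set of the kappa light chain locus, Igk, with a difference of 0.57. No level filter was applied to these 39, and most had mean signals under the filter's 169, down to 1.58 for Igk-V21. At such levels the offset added to the signals shrinks log2 differences, so the median cannot show how expressed immunoglobulin genes differed. Those at 169 or more had differences of 0.07 to 1.83. That cut is on the mean over all 24 arrays, 18 of them RI, which favours a positive sign. Iglv1 (0.85) had signals of 167 in B6, 141 in C3 and 56.1 in F1, and reached the cut through its RI level.

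The largest of these 39 differences belonged to Jchain, the joining chain that links IgA into dimers. Its signal ran from 459 through 1213 to 2256 in RI arrays, against 393 and 59.9 for B6, 711 and 1326 for C3 and 222 and 207 for F1. C3 lay among the RI strains, and Jchain had an adjusted p of 0.268; without C3 its difference was 2.59 and passed. Of 11 tested B lineage markers 1, Igha, was higher in the RI strains and none was lower, against 0.0604% and 0.0121% of all genes. The list's median was 0.20, and near 0 without F1. The list's mean log2 signal ran from 8.76 to 9.77 in RI arrays and from 8.29 to 9.20 in the others, so the classes overlapped. The B cell genes Ms4a1, Cd79a and Cd79b differed by 0.18, 0.20 and 0.19, none passing. In bulk lung, more cells of a type and more RNA per cell cannot be told apart.

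**Figure D2:**
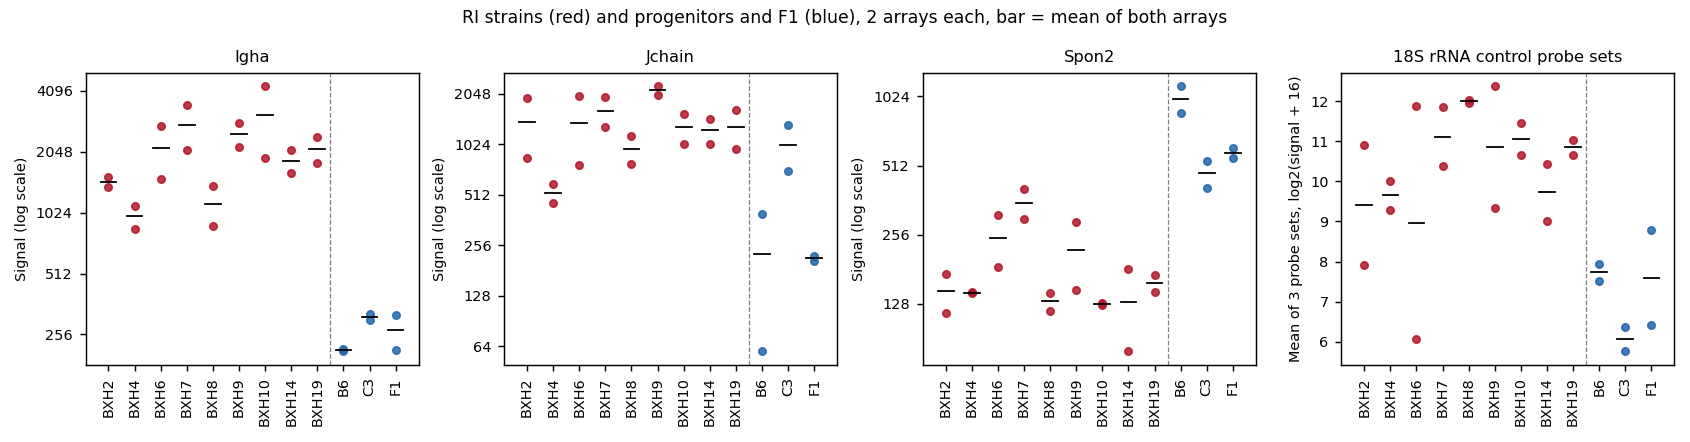
Signal on a log scale for Igha, Jchain and Spon2, and the mean log2 signal of 3 control probe sets for 18S ribosomal RNA, by strain with 2 array points and their mean; RI strains are red and left of the dashed line. Igha and Spon2 arrays do not overlap between the classes, Jchain overlaps through C3, and 18S strain means lie at 8.97 or more in RI strains and at 7.74 or less in the others while single arrays overlap.

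Spon2, also called mindin, was the gene lower in the RI strains. Its signal ran from 79.4 through 145 to 405 in RI arrays, against 868 and 1132 for B6, 407 and 538 for C3 and 552 and 611 for F1. The arrays did not overlap, but the highest RI array, of BXH7, and the lowest C3 array were close. Over strain means Spon2 averaged 184 ± 76.2 in RI strains and 685 ± 279 in the progenitors and F1 (SD, n = 9 and 3 strains). The log2 difference was -1.84 (SE 0.28, limma adjusted p 0.0261). Within the RI strains Spon2 and Dbp correlated at r = -0.79 (exact permutation p 0.0124, adjusted p 0.0503) and rho = -0.73 (exact permutation p 0.0311, adjusted p 0.210), and r was -0.46 without BXH7 and BXH8.

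Several collagen and matrix genes lay on the same side as Spon2 without passing. Serpinh1, the collagen chaperone HSP47, ran from 2705 through 3435 to 4124 in RI arrays, against 5216 and 4986 for B6, 4429 and 4643 for C3 and 4144 and 5345 for F1. No array overlapped, and the log2 difference was -0.47 (adjusted p 0.0863). A second Serpinh1 probe set gave -0.41 and overlapped between strain means. Creb3l1, a membrane-bound factor that switches on collagen genes, differed by -0.48 (adjusted p 0.268) and Thbs1, thrombospondin 1, by -0.60 (0.300). Of 17 matrix genes none passed, 15 differences were negative, against 4000 of all 8280 genes, and the median was -0.13. Eln, the elastin gene, had -1.10 (adjusted p 0.268) and the crosslinking enzymes Loxl1 and Lox had -0.45 (0.268) and -0.60 (0.545). Eln in BXH7 averaged 6512, within reach of the C3 arrays at 5607 and 7079. In a second Eln probe set, with a difference of -1.395, all RI strain means lay below.

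Of the genes named for direction and small p but not passing, those above in the RI strains were Gimap3, a lymphocyte GTPase, at 0.68 (adjusted p 0.0835; 1.04 without replicate 1 and 0.33 without replicate 2), and Uhrf1bp1l at 0.47, Cyp2b10 at 0.43 and Ephx1 at 0.47 (0.166 each). Cyp2b10 is a cytochrome P450 that oxidises xenobiotics, and Ephx1 is an epoxide hydrolase. Those below were Dap at -0.36 (adjusted p 0.126), the deubiquitinase gene Josd2 at -0.52 (0.252), the kinase gene Mapk6 at -0.33 (0.312), the trafficking gene Tmed3 at -0.27 (0.312) and Glipr2 at -0.65 (0.322). Both other Uhrf1bp1l probe sets overlapped between strain means, with differences of -0.11 and 0.03. So did both other Cyp2b10 probe sets (0.34 and 0.33) and the second ones of Mapk6 (-0.39) and Glipr2 (-0.97). In the second Dap probe set (-0.28) all RI strain means lay below.

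**Figure D3:**
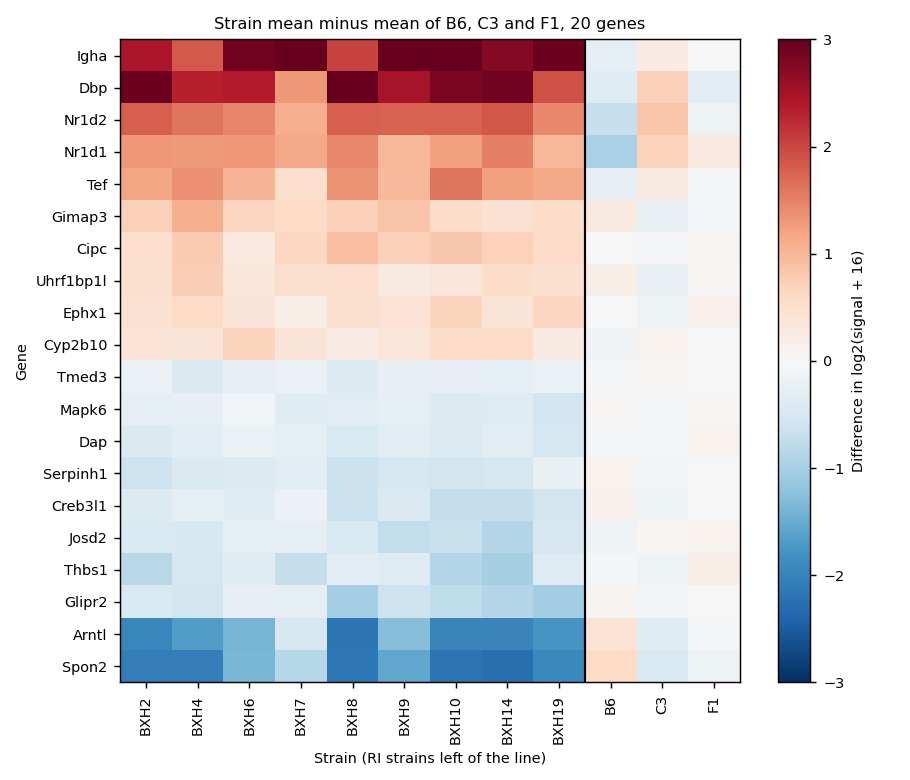
Strain mean minus the mean of B6, C3 and F1 in log2(signal + 16), by colour, for 20 named genes (vertical) and 12 strains (horizontal, RI strains left of the line); colours end at 3, which some Igha and Dbp values reach. Igha is the darkest gene above 0 and Spon2 and Arntl the darkest below, with the palest RI values of Dbp, Tef, Spon2 and Arntl in BXH7.

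Each of B6, C3 and F1 was also set apart in a fit of single arrays by strain, and the 3 contrasts share the RI arrays. Its p-values rest on the spread between the 2 arrays of a strain and leave out the spread between RI strains. For the pooled comparison such a fit called 218 genes, against 6 on strain means. In the fit of arrays the RI mean was higher than B6 for 49 genes (0.592%) and lower for 52 (0.628%), together 101 (1.22%). Against C3 it was higher for 84 (1.01%) and lower for 69 (0.833%), together 153 (1.85%), and against F1 higher for 22 (0.266%) and lower for 20 (0.242%), together 42 (0.507%). Dbp differed by 2.86 from B6, 1.75 from C3 and 2.81 from F1. Nr1d2 differed by 2.31 from B6, 0.78 from C3 and 1.78 from F1, so C3 was nearest to the RI mean in both.

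Igha differed by 3.01 from B6, 2.50 from C3 and 2.73 from F1, and Spon2 by -2.44, -1.38 and -1.68 in the same order. The 5 called genes other than Cipc passed against each of the 3 in this fit of arrays. Cipc gave 0.66, 0.71 and 0.60, with limma adjusted p of 0.0529, 0.0262 and 0.126. Arntl gave -2.04, -1.26 and -1.60, and in this fit each passed, with limma adjusted p of 2.9e-05, 0.00477 and 0.000926. On strain means, where the spread between RI strains counts, Arntl did not pass (limma adjusted p 0.0732). In both fits Arntl was tested because B6, C3 and F1 carried it over the level filter. Bhlhe40 gave 1.30 against B6 and 0.93 against F1, both passing, and 0.19 against C3 with an adjusted p of 0.600.

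**Figure D4:**
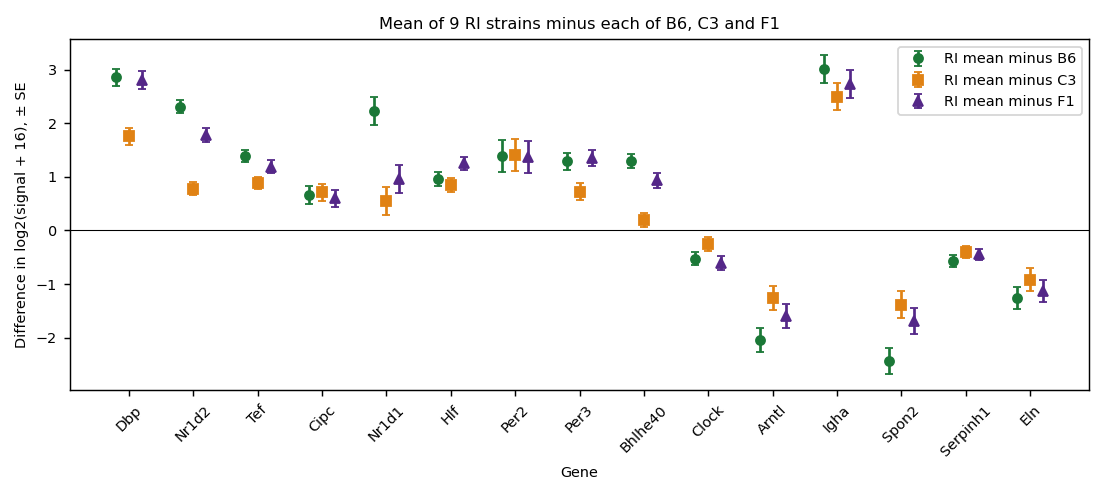
Mean of the 9 RI strains minus B6, C3 or F1 in log2(signal + 16) for 15 genes, with standard errors from the spread between arrays of a strain. Dbp, Nr1d2 and Tef lie above 0 and Spon2 and Arntl below 0 against all 3, and for Dbp, Nr1d2, Nr1d1, Bhlhe40, Arntl and Spon2 the C3 difference is the smallest in size.

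Other gene groups gave no called member. Over 40 lists 37 had none, and 367 list members were tested in all. The interferon list had 16 of 16 differences positive, with a median of 0.27. Ifit3, an interferon-induced antiviral gene, differed by 0.47 (adjusted p 0.317). T cell genes were positive in 4 of 4 (median 0.36) and NK cell genes in 6 of 6 (median 0.42), against 4280 of all 8280 genes. The arrays held 10 genes of each list, and the rest lay under the level filter. Of that rest Cd8a alone was negative without the filter, at -0.07. Cd3g in B6 and F1 (7.39 and 7.38) and Prf1 in C3 and F1 (7.46 and 7.21) lay under the filter's log2 level of 7.53. Both passed through their RI levels, which favours a positive sign. The T cell list's mean log2 signal was 8.08 to 8.83 over RI strains, against 8.02 in B6, 8.01 in C3 and 7.96 in F1, and single arrays overlapped. Its median was 0.14 without replicate 2, and the NK cell median was 0.25 without BXH4. The cell cycle list had 13 of 13 negative, against 4000 of all 8280 genes, and a median of -0.34. That median was -0.52 without F1 and -0.05 without replicate 2. The list's mean log2 signal was 8.25 to 8.77 over RI strains, against 8.97 in B6, 8.83 in C3 and 8.22 in F1, so F1 lay under every RI strain. The list of the unfolded protein response had 12 of 14 negative and a median of -0.23, whereas Herpud1, which serves degradation of proteins at the endoplasmic reticulum, gave 0.53 (adjusted p 0.434).

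**Figure D5:**
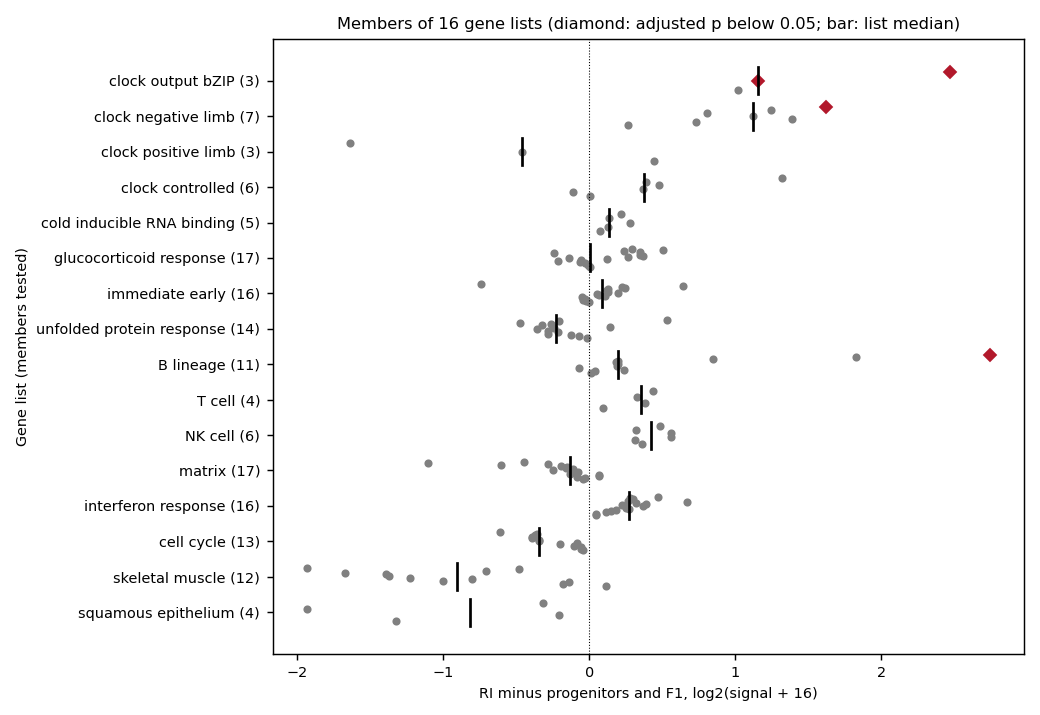
Difference between RI strains and the progenitors and F1 in log2(signal + 16) (horizontal axis) for the tested members of 16 gene lists; diamonds have an adjusted p below 0.05 and bars are list medians. The 4 diamonds are Dbp, Tef, Nr1d2 and Igha, the clock output and negative limb lists have medians of 1.16 and 1.12, and the medians of the other 14 lists lie between -0.90 and 0.42.

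Lung identity and array quality were checked once for all 24 arrays. The type 2 alveolar list, made of surfactant and lipid genes, had a mean log2 signal of 12.5 to 12.9 in RI arrays and 12.5 to 12.8 in the others. Skeletal muscle genes varied widely, with list means of 6.55 to 11.7 in RI arrays and 6.85 to 10.5 in the others. Their median difference was -0.90 with 0 of 12 called, and that of squamous epithelium genes was -0.82 with 0 of 4 called. Both medians moved with the arrays left out, the muscle one between -2.25 without replicate 1 and 0.18 without replicate 2, and the squamous one between -1.49 without C3 and -0.33 without replicate 2. Array correlations between an RI array and a progenitor or F1 array had a median of 0.945, against 0.944 between different strains of one class.

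One control stood apart by class. The 3 probe sets for 18S ribosomal RNA had mean log2 signals of 10.4 ± 1.00 in RI strains and 7.13 ± 0.93 in the progenitors and F1 (SD, n = 9 and 3 strains). One of them read from 257 through 6249 to 10809.9 in RI arrays, against 601 and 532 for B6, 162 and 278 for C3 and 256 and 1249 for F1. Strain means did not overlap and single arrays did, with 1 BXH6 array among the lowest. The difference of 3.27 had an exact permutation p of 0.00455, the smallest that 220 choices of 3 strains can give, and an adjusted p of 0.0636 over 14 measures. This measure was added after the data were seen.

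Of 64 control probe sets these 3 alone had all RI strain means above, and 0 had them below. The other 13 measures, which cover array median, dim signals, highest signal, 3′ to 5′ ratios and spiked controls, overlapped between classes, with exact permutation p up to 0.991. The lowest was 0.0455 (adjusted p 0.270), for the highest log2 signal of an array, at 14.0 ± 0.09 in RI strains and 13.8 ± 0.18 in the progenitors and F1, a measure also added after the data were seen. Within the 9 RI strains 18S signal and Dbp correlated at r = -0.03 (exact permutation p 0.934, adjusted p 0.998) and rho = 0.05 (exact permutation p 0.912, adjusted p 0.948), and r was 0.09 without BXH6 and BXH2, the strains farthest from the 18S median. With Igha r was 0.17 (exact permutation p 0.659, adjusted p 0.806) and rho 0.37 (exact permutation p 0.336, adjusted p 0.49), and r was 0.18 without those strains. With Cipc r was 0.69 (exact permutation p 0.0372, adjusted p 0.0861) and rho 0.68 (exact permutation p 0.0503, adjusted p 0.210), and r was 0.29 without them.

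The call for Igha held in all 53 alternatives tried. Leaving out 1 array, 1 replicate number or 1 strain in 38 ways, the call held in 35 for Dbp, 33 for Nr1d2, 31 for Tef, 27 for Spon2 and 16 for Cipc. Dropping F1 left Igha as the single called gene, with an adjusted p of 0.137 for Dbp, Nr1d2, Tef, Cipc and Spon2 alike, and dropping BXH14 also left Igha alone. Dropping B6 left Igha and Ppp1r21, dropping BXH2 or BXH4 left Dbp and Igha, and dropping BXH7 gave 18 called genes, including Arntl, Hlf, Per2, Eln and Loxl1. Dropping C3 gave 8, without Cipc and with Bhlhe40, Nr1d1 and Jchain added. Single arrays whose loss ended a call were BXH9 replicate 1 for Tef and Spon2, and BXH14 replicate 2 and BXH6 replicate 1 for Spon2. The number of called genes was 11 without B6 replicate 1 and 3 without BXH9 replicate 1. For Cipc the loss of any of 9 RI arrays, B6 replicate 2 or F1 replicate 2 ended the call. The 6 called genes kept the sign of their differences in every alternative run.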

How the data were processed

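Lung RNA of 12 mouse strains was measured on 24 Affymetrix arrays. The deposited intensity values are linear signals for 22690 probe sets. The authors scaled them so that the mean signal after trimming 2% from each end is 499.99 to 500.29 on every array, as the values show; the summary software is not given in the sources used here. Total RNA was extracted with Trizol and labelled as biotin cRNA, per the labels' protocols. The numbers of strains, 9 on the RI side and 3 on the other, and of arrays limit the precision.

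Signals were turned to log2(signal + 16). Each gene kept the probe set of highest mean, from probe sets in the top 60% by mean (signal of 169 or more) and paired with 1 gene in the platform annotation: 20380 named 1 gene, 691 several and 1555 none. The 9 RI strain means were compared with those of B6, C3 and F1 by limma 3.58.1 in R 4.3.3 (mean-variance trend, 10 residual degrees of freedom, Benjamini-Hochberg adjusted p below 0.05, two-sided), so the strain is the replicate. A second limma fit on arrays set the RI mean against each of B6, C3 and F1, with its error from arrays within strains. Technical measures had two-sided exact permutation tests over strains. The code was tested on simulated data.

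Named genes were the called ones with strain means on one side, filled up to 10 per direction by smallest p, plus clock members, cold-inducible members and up to 4 members of each other described list. Members and lists were chosen with earlier results of these data known. Alternatives changed normalization, offset, filter, probe set choice, replicate unit, covariate and samples.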

Additional observations from a re-analysis of the deposited data

Results flagged for a closer look

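Among the 9 RI strains, 82 sets of strain means were searched for 1 strain far from the others, and 4 had one by Dixon's criterion, which chance gives in about 1 of 20 sets. For the splicing factor gene Srsf3, BXH4 had a mean log2 signal of 9.93, with the nearest strain at 10.4. For the interferon-induced gene Ifit3, BXH4 had 10.39, with the nearest strain at 10.02. For the immediate early list, BXH2 had a mean log2 signal of 10.64, with the nearest strain at 10.31. For the T cell list, BXH4 had 8.83, with the nearest strain at 8.34. The causes were not tested.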

How the results depend on the processing

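Of 8280 genes 6 were called, 5 higher and 1 lower in the RI strains, and the same 6 were called with quantile normalization, median centring, an offset of 1, no trend and a robust spread. An offset of 64 and no filter each gave 7 (2 lower), the top 40% of probe sets 5 (0 lower), and every probe set 10 (9 higher), with 115 probe sets below on one side. The mean of probe sets gave 6 with 5 shared. Fits on 24 arrays gave 218 (107 higher, 111 lower) with strain groups and 26 (19 higher, 7 lower) with strain as a random block, at a correlation within strain of 0.197. Adding the replicate number as a block to the strain groups gave 206 (98 higher, 108 lower); the numbers do not pair the samples, since replicate differences correlated between strains at -0.299 to 0.344 (median -0.004, 66 pairs). A skeletal muscle covariate gave 11 (4 lower). Without F1 there was 1 call (1 higher, 0 lower), and one-side counts were 435, 212 above and 223 below. Leaving out a replicate or a strain gave 1 to 18 calls (1 to 11 higher, 0 to 7 lower), and one-side counts of 73 to 436 (26 to 250 above, 47 to 223 below), since fewer strains must then be on one side where a strain is dropped. It gave 31 to 116 calls against B6 (101 with all arrays), 41 to 168 against C3 (153) and 21 to 58 against F1 (42); the cause was not tested. Signs turned for Srsf3 with the mean of probe sets (-0.0061) and for Cry2 with a replicate number left out (-0.034 to 0.57), neither called. The list medians that turned were skeletal muscle (-2.25 to 0.18) and glucocorticoid response (-0.022 to 0.28), with a replicate number, array or strain left out, glucocorticoid response also, just under 0, with median centring and the mean of probe sets, and the positive limb with the top 40% (0.44). Signs also turned when 1 strain was dropped for the array median (-0.0022 to 0.033), the Gapdh ratio (-0.022 to 0.019) and spiked controls CreX (-0.041 to 0.028), PheX (-0.0016 to 0.072), ThrX (-0.0076 to 0.10) and DapX (-0.064 to 0.060).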
